A study of Mus musculus with 10 samples.

Results

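The collagen genes of the mouse were followed through germ cell induction from fertilized and from parthenogenetic embryonic stem cells. Every gene whose symbol has the form Col, a number, the letter a and a number was taken, which gave 44 of the 36066 genes in the table by a rule that reads symbols only. The 10 libraries were RNA-seq of C57BL6 mouse cells, 2 replicates of each of 5 groups. ESCs were a female embryonic stem cell line from fertilized embryos, and pESCs were a line from parthenogenetic embryos, which arise from activated oocytes without a sperm. ESC-PGCLCs and pESC-PGCLCs are, by their labels, primordial germ cell-like cells made from these lines. The lines were first kept for 2 days in serum replacement, bFGF and Activin A to give epiblast-like cells. Induction then ran for 4 days with BMP4 at 500 ng/ml, and with LIF (1000 IU), SCF (100 ng/ml) and EGF (50 ng/ml). PGCs were primordial germ cells, for which the labels name no embryonic day and no treatment. By the study's methods the lines carried a β-Actin-GFP transgene and the induced cells were sorted for the surface markers SSEA1 and CD61. Its PGCs were sorted from dissociated female embryonic gonads, with SSEA1 and CD61 or with SSEA1 alone. Each group of cultured cells stands on 1 kind of line, so the line and its origin cannot be told apart.

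Collagens are proteins of the extracellular matrix built as triple helices of 3 alpha chains, with each chain encoded by its own gene. Network-forming type IV chains, together with laminins, nidogens and perlecan, make the sheet called the basement membrane, and type XVIII collagen, the source of endostatin, is anchored in it. Types I, III and V assemble into banded fibrils of connective tissue. FACIT collagens such as type IX and type XII attach to the surface of fibrils, type VI forms beaded filaments, and the transmembrane collagens, type XIII among them, sit in the plasma membrane. Primordial germ cells migrate through such a matrix to the embryonic gonad. The 44 genes were sorted by these roles into 7 basement membrane genes (Col4a1 to Col4a6 and Col18a1), 6 fibrillar genes of types I, III and V, 5 other fibrillar genes, 13 beaded filament and network genes, 9 FACIT genes and 4 transmembrane genes.

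Several of these genes lie as neighbours in the genome, and 4 starts are shown because they belong to members whose levels carry the results. Col4a1 (chr8:11198423-11312826, minus strand) and Col4a2 (chr8:11312805-11449287, plus strand; GRCm38, GENCODE M21) are divergent, with annotated ends that overlap by 22 bases. Their promoter windows, each of 300 bases with 250 before and 50 after the RefSeq start on GRCm38.p6, share 78 bases. Col3a1 (chr1:45311538-45349706, plus strand) was the most abundant fibrillar member. Col13a1 (chr10:61838236-61979108, minus strand) was the member with its highest levels in stem cells. Capitals mark matches, on either strand, to 4 short motifs. The GC box was searched as GGGCGG, the CCAAT box by the letters of its name, the TATA box as TATAAA. The motif of SOX factors was searched as the letters AACAAT. Each window is given 5′ to 3′ on the strand of its gene.
Col4a1 (chr8:11312777-11313076, minus strand): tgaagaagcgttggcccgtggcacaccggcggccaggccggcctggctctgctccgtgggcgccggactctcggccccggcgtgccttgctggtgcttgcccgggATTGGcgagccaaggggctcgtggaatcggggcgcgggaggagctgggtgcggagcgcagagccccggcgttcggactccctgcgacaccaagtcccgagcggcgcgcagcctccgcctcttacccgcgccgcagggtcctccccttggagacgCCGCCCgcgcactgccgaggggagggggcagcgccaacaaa
Col4a2 (chr8:11312555-11312854, plus strand): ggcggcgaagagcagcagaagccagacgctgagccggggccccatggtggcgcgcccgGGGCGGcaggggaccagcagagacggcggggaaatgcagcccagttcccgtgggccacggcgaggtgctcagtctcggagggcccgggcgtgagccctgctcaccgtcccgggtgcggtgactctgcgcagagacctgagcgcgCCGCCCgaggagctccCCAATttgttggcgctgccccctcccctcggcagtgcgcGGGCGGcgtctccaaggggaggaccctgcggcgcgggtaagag
Col3a1 (chr1:45311288-45311587, plus strand): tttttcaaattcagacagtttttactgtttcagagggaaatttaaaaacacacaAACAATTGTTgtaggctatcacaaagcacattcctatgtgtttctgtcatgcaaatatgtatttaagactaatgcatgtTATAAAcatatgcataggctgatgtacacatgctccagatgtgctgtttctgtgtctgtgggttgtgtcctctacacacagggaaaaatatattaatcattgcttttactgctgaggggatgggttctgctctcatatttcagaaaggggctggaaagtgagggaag
Col13a1 (chr10:61979059-61979358, minus strand): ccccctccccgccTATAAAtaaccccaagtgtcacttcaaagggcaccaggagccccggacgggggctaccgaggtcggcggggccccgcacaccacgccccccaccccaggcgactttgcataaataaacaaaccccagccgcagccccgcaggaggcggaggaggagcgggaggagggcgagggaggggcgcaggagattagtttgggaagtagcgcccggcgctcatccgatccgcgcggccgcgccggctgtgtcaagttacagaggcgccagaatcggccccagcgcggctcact

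The Col4a1 and Col4a2 windows were rich in CG dinucleotides, with 37 and 33 of them, and Col13a1 held 29, whereas Col3a1 held 0 and had a GC content of 37.7%. Over the 32851 RefSeq windows the median was 7 CG dinucleotides. The 35 collagen genes found in RefSeq had 38 windows. A GC box stood in 60.5% of them and in 35.7% of all windows, a CCAAT box in 34.2% and 37.4%, a TATA box in 13.2% and 13.6%, and AACAAT in 2.63% and 10.7%. The last share is a single window, that of Col3a1, in which the letters occurred on both strands and the matches overlapped. These matches describe the letters of a window only. Other close pairs were Col4a3 and Col4a4 (divergent, 71 bases apart), Col4a5 and Col4a6 (divergent, 1308 bases), Col3a1 and Col5a2 (convergent, 24614 bases) and Col9a1 and Col19a1 (convergent, 9205 bases).

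Values are TPM, the share of transcripts after correction for gene length, scaled so that each library sums to 1000000. The libraries held 6779837 to 18572894 reads on genes, recovered from the TPM, and both ESC-PGCLC libraries were the shallowest. A total of 223 to 355 of these reads fell on the 44 collagens in a stem cell library and 902 to 3778 in a germ cell library, so stem cell values of most members rest on a few reads. Differences were tested with limma on log2(TPM + 1) over the 27259 genes that reached 0.1 TPM in 2 libraries, with Benjamini-Hochberg adjustment over all of them. Calls needed both an adjusted p below 0.05 and a 2-fold difference in TPM + 1, a scale that understates the changes of low genes. Of the 44 collagens 35 passed the filter on low values. The other 9 (Col4a3, Col4a4, Col6a4, Col6a6, Col7a1, Col8a1, Col11a2, Col14a1 and Col28a1) were not tested.

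The groups were checked against markers of germ cells and of other cells. The summed level of 8 germ cell markers was 390 to 915 TPM in stem cells and 5437 to 7882 TPM in the germ cell libraries. Markers of gonadal somatic cells (10 measured, Wt1 and Lhx9 among them) summed to 3.02 to 6.78 TPM in stem cells. They summed to 26.5 and 32.1 TPM in ESC-PGCLCs, 53.7 and 49.3 TPM in pESC-PGCLCs, and 107 and 92.0 TPM in PGCs. Globins and other erythroid genes (6) went from at most 3.78 TPM in stem cells to between 434 and 2773 TPM in germ cell libraries, and 9 endoderm markers went from at most 1.08 TPM to between 7.26 and 27.1 TPM. Single members fell in mean from ESCs to PGCs, Cyp11a1 of the gonadal list (0.22 to 0.12 TPM) and Sox17 of the endoderm list (0.07 to 0.02 TPM). The 13 fibroblast markers, looked at because stem cells grow on feeder cells, summed to 1.06 to 2.00 TPM in stem cells and 3.86 to 8.98 TPM in germ cell libraries. From ESCs to PGCs the mean went from 0 to 1.28 TPM for Dcn and from 0.03 to 1.02 TPM for Pdgfra. Thy1 went the other way and was at 0 in 5 of 6 germ cell libraries. The 7 endothelial markers summed to 5.69 to 8.79 TPM in stem cells and 1.66 to 5.54 TPM in the others, but they did not move together. From ESCs to PGCs the mean fell for Tek (2.71 to 0.44 TPM) and Egfl7 (5.09 to 1.23 TPM). It rose for the other endothelial markers, among them Cdh5 (0 to 1.01 TPM) and Kdr (0.02 to 1.54 TPM). The study also aggregated PGCLCs with gonadal somatic cells for later experiments, and the labels do not say whether these libraries were taken before or after such a step. Each PGCLC value below is therefore that of the library as labelled. Apart from the endothelial sum, these lists move with most collagen results below, and their part in them was not tested. In bulk RNA, more cells of a type and more RNA per cell cannot be told apart.

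Collagens were scarce in stem cells and far more abundant in germ cells. The 44 genes summed to 4.32 and 4.71 TPM in ESCs and 4.23 and 5.05 TPM in pESCs. In ESC-PGCLCs the sum was 39.6 and 39.8 TPM, in pESC-PGCLCs 41.7 and 37.5 TPM, and in PGCs 79.7 and 64.3 TPM, with no overlap between stem cells, PGCLCs and PGCs. At least 1 TPM was reached by 1 or 2 members in a stem cell library, by 5 to 11 in a PGCLC library and by 11 in both PGC libraries. In all, 13 members reached 1 TPM in some library and 31 did in none. The latter had their highest value, 0.97 TPM, in Col1a2 of a PGC library.

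**Figure D1:**
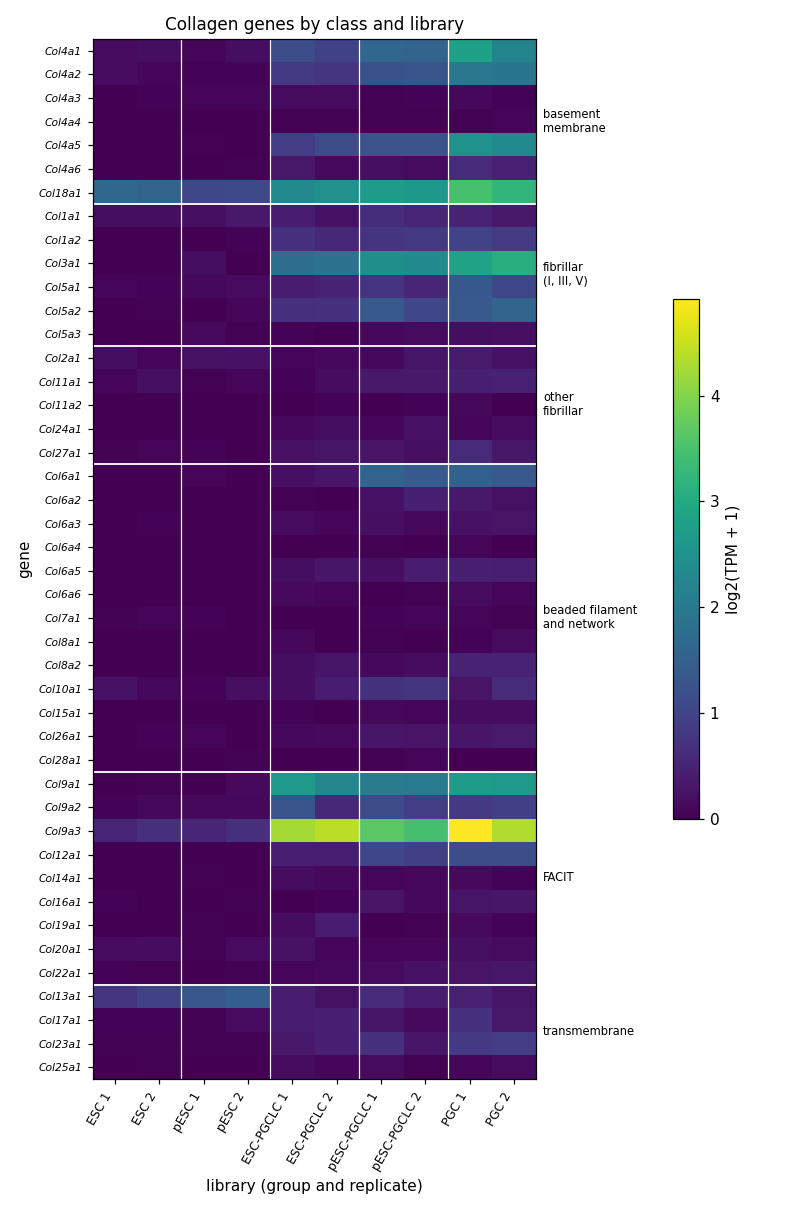
Level of each of the 44 collagen genes (rows, by class) in the 10 libraries (columns) as log2(TPM + 1), on a colour scale from 0. Stem cell libraries show mainly Col18a1, Col13a1 and a faint Col9a3, while Col9a3 is the brightest row in all 6 germ cell libraries.

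The leading collagen changed between stem cells and germ cells. In ESCs the highest member was Col18a1 at 2.02 ± 0.11 TPM (SD, n = 2), before Col13a1 at 0.83 ± 0.20 TPM and Col9a3 at 0.52 ± 0.13 TPM. In pESCs Col13a1 led at 1.66 ± 0.17 TPM, and Col18a1 followed at 1.11 ± 0.03 TPM. In all 3 germ cell groups Col9a3 led by a wide margin, followed in PGCs by Col18a1, Col3a1, Col9a1 and Col4a1. In PGCs the Col18a1 libraries lay above both Col3a1 libraries, while Col9a1 (5.57 and 5.24 TPM) and Col4a1 (6.01 and 3.68 TPM) overlapped. In ESC-PGCLCs, Col9a1 at 5.31 and 3.83 TPM and Col18a1 at 4.13 and 4.62 TPM were not separated either.

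The first comparison asked how far collagens changed when stem cells became PGCLCs. In ESC-PGCLCs against ESCs 4 of 35 tested collagens rose (Col3a1, Col4a5, Col9a1 and Col9a3) and 0 fell, beside 15.3% of all tested genes that rose and 14.5% that fell. In pESC-PGCLCs against pESCs 9 rose (Col3a1, Col4a1, Col4a2, Col4a5, Col5a2, Col6a1, Col9a1, Col9a3 and Col18a1) and 0 fell, beside 20.8% and 6.8%. The median log2 change of the tested collagens was 0.24 and 0.30, and that of all tested genes was 0.05 and 0.22. In the first comparison the share of collagens called was thus below the background and in the second it was slightly above it. With voom on the recovered reads, a method that weights low counts, 22 collagens rose and Col13a1 fell in ESC-PGCLCs, where 26.6% of all genes rose, and 28 rose and Col13a1 fell in pESC-PGCLCs, where 28.7% rose. Centring each library on its median moved the median of all genes from 0.22 to -0.51 in the pESC lineage, and the calls over all genes from 5681 higher and 1854 lower to 2280 and 5010. Of the 9, Col3a1, Col9a1 and Col9a3 were then still called higher, and Col13a1 was called lower. Quantile normalization took Col4a2 and Col5a2 just below the limit (0.99 and 0.95).

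PGCs against stem cells, taken as the mean of ESCs and pESCs, gave the most calls. Here 11 of 35 collagens rose, the 9 above with Col5a1 and Col12a1, and 0 fell, beside 25.3% of all tested genes that rose and 8.06% that fell. With voom 30 rose and Col13a1 fell, beside 37.2% of genes that rose. Without a test, 38 of 44 members had both PGC libraries above both ESC libraries, and 38 above both pESC libraries, where 39.7% and 40.6% of all 36066 genes did so. The median log2 change was 0.42 over tested collagens and 0.28 over all tested genes. Median centring left 7 of the 11 called higher and called Col13a1 lower, with the calls over all genes moving from 6883 higher and 2197 lower to 3090 and 5533.

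**Figure D2:**
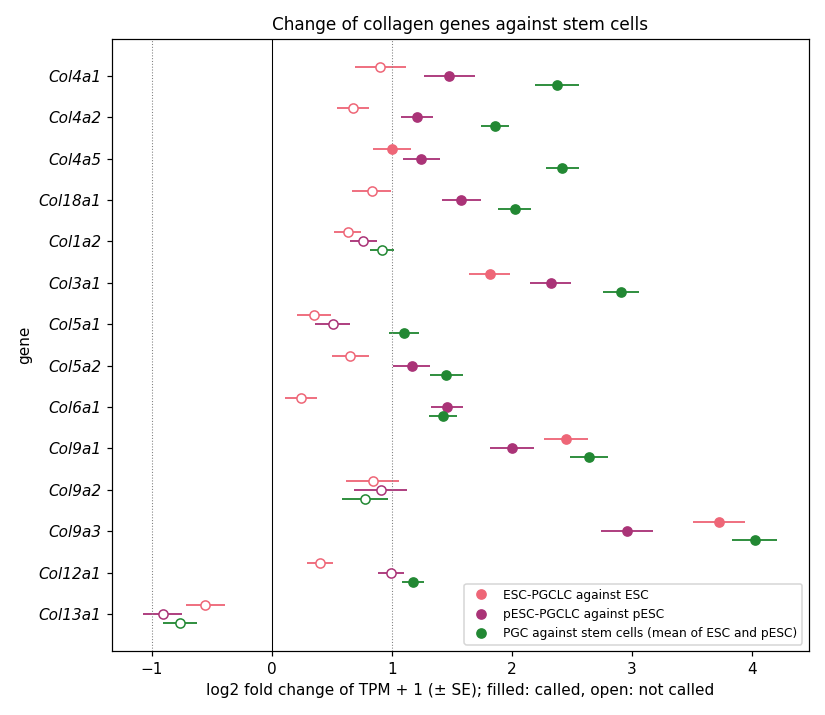
Log2 fold change of TPM + 1 (x axis, ± SE from limma) for 14 collagen genes (y axis) in both kinds of PGCLC against their stem cells and in PGCs against stem cells; filled points were called, open points were not. Col13a1 is the 1 gene left of 0 in all 3 comparisons, and the largest value is that of Col9a3 in PGCs, 4.02.

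Among the basement membrane genes, Col4a1 and Col4a2, whose chains combine into the common type IV molecule, changed together. Col4a1 was at 0.10 and 0.13 TPM in ESCs, 0.05 and 0.14 TPM in pESCs, 1.24 and 0.95 TPM in ESC-PGCLCs, 2.06 and 2.02 TPM in pESC-PGCLCs and 6.01 and 3.68 TPM in PGCs. Col4a2 was at 0.11 and 0.05 TPM, 0.03 and 0.03 TPM, 0.79 and 0.67 TPM, 1.35 and 1.43 TPM, and 2.91 and 2.74 TPM in the same order. For both genes the stem cell groups were lowest, followed without overlap by ESC-PGCLCs, pESC-PGCLCs and PGCs. The 2 stem cell groups overlapped for Col4a1, while for Col4a2 pESCs lay below ESCs, on 4 and 11 reads. In pESC-PGCLCs against pESCs the log2 change was 1.48 ± 0.21 for Col4a1 and 1.21 ± 0.13 for Col4a2 (SE, n = 2 per group; limma adjusted p = 0.000859 and 0.000241). In ESC-PGCLCs against ESCs the changes of 0.90 ± 0.21 and 0.68 ± 0.13 were below 2-fold on the log2(TPM + 1) scale, and limma called neither gene. The mean TPM of Col4a1 and Col4a2 rose 9.26-fold and 8.83-fold there, from 19 and 11 reads in ESCs. Voom called both genes higher. The ratio of Col4a1 to Col4a2 was 1.41 to 1.56 in the 4 PGCLC libraries and 2.06 and 1.34 in PGCs.

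Col4a5, an X-linked chain of basement membranes such as that of the kidney glomerulus, was nearly silent in stem cells. It had 0 reads in both ESC libraries and 1 read in the pESC libraries together. It reached 0.85 and 1.17 TPM in ESC-PGCLCs, 1.40 and 1.38 TPM in pESC-PGCLCs and 4.74 and 4.04 TPM in PGCs. Its mean was at least 47.6-fold higher in ESC-PGCLCs and at least 207-fold higher in PGCs than in ESCs, counted against a floor of 3 reads over the ESC group. In ESC-PGCLCs the log2 change was 1.00 ± 0.16 (limma adjusted p = 0.00109), right at the 2-fold limit, and without ESC-PGCLC replicate 2 it was 0.88 and no longer called. Its neighbour Col4a6 reached 0.55 and 0.38 TPM in PGCs and stayed at or under 0.26 TPM elsewhere. Col4a3 and Col4a4, its partner chains in the kidney, stayed at or under 0.11 TPM in every library.

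Col18a1 was the only basement membrane gene with more than 1 TPM in stem cells. It was at 2.10 and 1.94 TPM in ESCs, 1.09 and 1.13 TPM in pESCs, 4.13 and 4.62 TPM in ESC-PGCLCs, 5.45 and 5.15 TPM in pESC-PGCLCs, and 10.2 and 8.37 TPM in PGCs. All 5 groups were separate. It rose 4.78-fold in mean TPM from pESCs to pESC-PGCLCs (log2 change 1.58 ± 0.16, limma adjusted p = 0.000155). From ESCs to ESC-PGCLCs the ratio was 2.16, but on the log2(TPM + 1) scale the change of 0.83 ± 0.16 was under the limit. The lower pESC level was not called (-0.52 ± 0.16, limma adjusted p = 0.139).

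Among the fibrillar genes, Col3a1, the chain of type III fibrils in soft tissues, was the highest in germ cells. It had 1 read in ESCs and 11 reads in pESCs, all from replicate 1. It was at 2.42 and 2.65 TPM in ESC-PGCLCs, 4.47 and 4.16 TPM in pESC-PGCLCs and 6.12 and 7.45 TPM in PGCs, and these 3 groups did not overlap. Its log2 change was 1.81 ± 0.17 in ESC-PGCLCs, 2.32 ± 0.17 in pESC-PGCLCs and 2.91 ± 0.15 in PGCs against stem cells (limma adjusted p = 8.18e-05, 3.84e-05 and 3.39e-06).

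The type V chains, which start the growth of fibrils, were lower than Col3a1. Col5a2 was at 0.01 and 0.03 TPM in ESCs, 0.01 and 0.05 TPM in pESCs, 0.59 and 0.61 TPM in ESC-PGCLCs, 1.59 and 1.05 TPM in pESC-PGCLCs and 1.60 and 2.02 TPM in PGCs. It rose in pESC-PGCLCs by 1.16 ± 0.16 on the log2 scale (limma adjusted p = 0.000611), which became 1.00 and not called without pESC-PGCLC replicate 1. Col5a1 reached 1.55 and 1.06 TPM in PGCs and was at or under 0.68 TPM in PGCLCs. Its change was 1.10 ± 0.12 in PGCs against stem cells (limma adjusted p = 0.00014), and 0.94 without PGC replicate 1, below the 2-fold limit. Col5a3 stayed at or under 0.15 TPM.

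The type I chains, the bulk of fibrils in bone and skin, were low throughout. Col1a2 had 0 reads in ESCs and 3 in pESCs, and was at 0.63 and 0.47 TPM in ESC-PGCLCs, 0.66 and 0.78 TPM in pESC-PGCLCs and 0.97 and 0.84 TPM in PGCs. Its change in PGCs, 0.92 ± 0.10 (limma adjusted p = 0.000103), was just under 2-fold on the log2(TPM + 1) scale, and voom called it in all 3 comparisons with stem cells. Col1a1 lay between 0.13 and 0.55 TPM in the 10 libraries and was called in none.

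Set side by side, both classes were lowest in stem cells and highest in PGCs, and the distance between them did not follow the same order. The 7 basement membrane genes summed to 2.32 and 2.16 TPM in ESCs, 1.24 and 1.38 TPM in pESCs, 7.40 and 7.63 TPM in ESC-PGCLCs, 10.5 and 10.1 TPM in pESC-PGCLCs, and 24.5 and 19.3 TPM in PGCs. The 6 fibrillar genes summed to 0.22 and 0.18 TPM, 0.46 and 0.47 TPM, 4.29 and 4.31 TPM, 8.03 and 6.96 TPM, and 10.8 and 11.8 TPM. The basement membrane sum was the larger in all 10 libraries, but this rested on Col18a1, which made up 82.2% to 90.7% of it in stem cells and 41.7% to 60.6% in germ cells. Without Col18a1, a setting added after seeing the data, the sum was the larger in 2 of 10 libraries, ESC replicate 2 (0.22 against 0.18 TPM) and PGC replicate 1 (14.3 against 10.8 TPM). In the other 8 it was the smaller, as in pESC replicate 1 (0.15 against 0.46 TPM) and PGC replicate 2 (10.9 against 11.8 TPM). As a mean of log2(TPM + 1) over the genes of a class, basement membrane exceeded fibrillar by 0.22 ± 0.00 in ESCs, 0.09 ± 0.02 in pESCs, 0.16 ± 0.00 in ESC-PGCLCs, 0.05 ± 0.06 in pESC-PGCLCs and 0.36 ± 0.12 in PGCs (SD, n = 2). No test was made of this score. Without Col18a1 it was 0.0037 in ESCs, -0.057 in pESCs, -0.11 in ESC-PGCLCs, -0.23 in pESC-PGCLCs and 0.065 ± 0.11 in PGCs. With Col18a1 kept in its class, the pESC-PGCLC value of 0.05 was smaller than its spread of 0.06. That value turned to -0.25 with a pseudocount of 0.1, a setting in which ESCs (0.60) and not PGCs (0.24) had the largest difference. In the log2 ratio of sums, stem cells were highest (3.48 in ESCs and 1.50 in pESCs) and pESC-PGCLCs lowest (0.46). The fibrillar sum in that ratio rested on 15 and 16 reads in ESCs and 32 and 31 reads in pESCs.

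**Figure D3:**
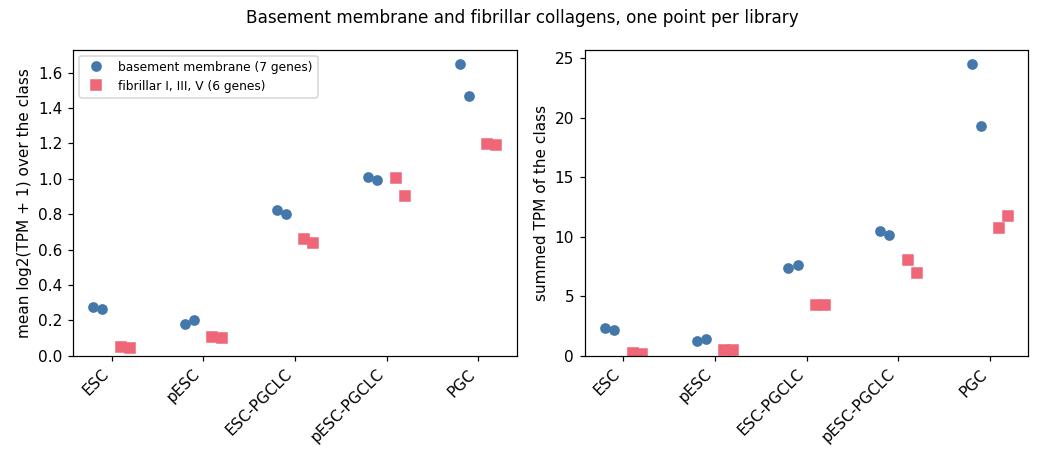
Basement membrane collagens (circles, 7 genes) and fibrillar collagens of types I, III and V (squares, 6 genes) by group, 1 point per library, as the class mean of log2(TPM + 1) (left) and as summed TPM (right). Both classes are lowest in stem cells and highest in PGCs, and their means lie closest in pESC-PGCLCs.

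By counts, 4 of the 7 basement membrane genes and 3 of the 6 fibrillar genes rose in PGCs against stem cells, 4 and 2 in pESC-PGCLCs against pESCs, and 1 and 1 in ESC-PGCLCs against ESCs. All tested genes rose at shares of 25.3%, 20.8% and 15.3% in these comparisons, so the last counts, 1 of 5 tested and 1 of 6 tested, lie near the background. The median log2 change of the tested genes was 2.02 for basement membrane (5 tested) and 1.01 for fibrillar genes (6 tested) in PGCs against stem cells, beside 0.28 for all tested genes. Of the 5 other fibrillar genes (Col2a1, Col11a1, Col11a2, Col24a1 and Col27a1) limma on log2(TPM + 1) called 0 in any comparison, and none exceeded 0.53 TPM. Voom called Col11a1, Col24a1 and Col27a1 higher in PGCs against stem cells and in pESC-PGCLCs against pESCs. Col11a1 was at 0.36 and 0.37 TPM in PGCs and 0.27 and 0.27 TPM in pESC-PGCLCs, against 0.03 and 0.12 TPM in ESC-PGCLCs.

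On the log2(TPM + 1) scale the largest change was that of Col9a3. It is a chain of type IX collagen, a FACIT molecule best known from cartilage, which is made of the chains of Col9a1, Col9a2 and Col9a3. Col9a3 was at 0.42 and 0.61 TPM in ESCs, 0.44 and 0.60 TPM in pESCs, 18.1 and 20.1 TPM in ESC-PGCLCs, 11.6 and 10.1 TPM in pESC-PGCLCs, and 29.1 and 19.1 TPM in PGCs. Its mean rose 36.9-fold in ESC-PGCLCs and 20.8-fold in pESC-PGCLCs (log2 changes 3.73 ± 0.21 and 2.96 ± 0.21, limma adjusted p = 8.55e-06 and 3.63e-05). Col9a3 alone made up 26.9% to 50.4% of the summed collagen TPM of the germ cell libraries. A stretch of 6.07% of its exon bases overlaps Tcfl5 on the opposite strand, and since neither stated library kit marks strand, reads there cannot be assigned.

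Col9a1 followed the same steps from a lower start. It had 1 read in ESCs and 4 in pESCs, and was at 5.31 and 3.83 TPM in ESC-PGCLCs, 3.24 and 3.12 TPM in pESC-PGCLCs and 5.57 and 5.24 TPM in PGCs. The log2 change was 2.45 ± 0.18 in ESC-PGCLCs and 2.00 ± 0.18 in pESC-PGCLCs (limma adjusted p = 2.65e-05 and 9.43e-05). Col9a2 remained far lower, at 1.43 and 0.48 TPM in ESC-PGCLCs, 1.18 and 0.86 TPM in pESC-PGCLCs and 0.76 and 0.89 TPM in PGCs. Limma on log2(TPM + 1) of all libraries did not call it, while voom and a pseudocount of 0.1 called it higher in all 3 comparisons with stem cells. Its mean TPM rose 16.3-fold in ESC-PGCLCs and 13.7-fold in pESC-PGCLCs, from 4 reads in each stem cell group. The 3 chains were thus unequal in germ cells, with 3.23 to 5.24 times as much Col9a3 as Col9a1 and 9.85 to 42.2 times as much Col9a3 as Col9a2. All 3 genes had under 1 TPM in every stem cell library.

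**Figure D4:**
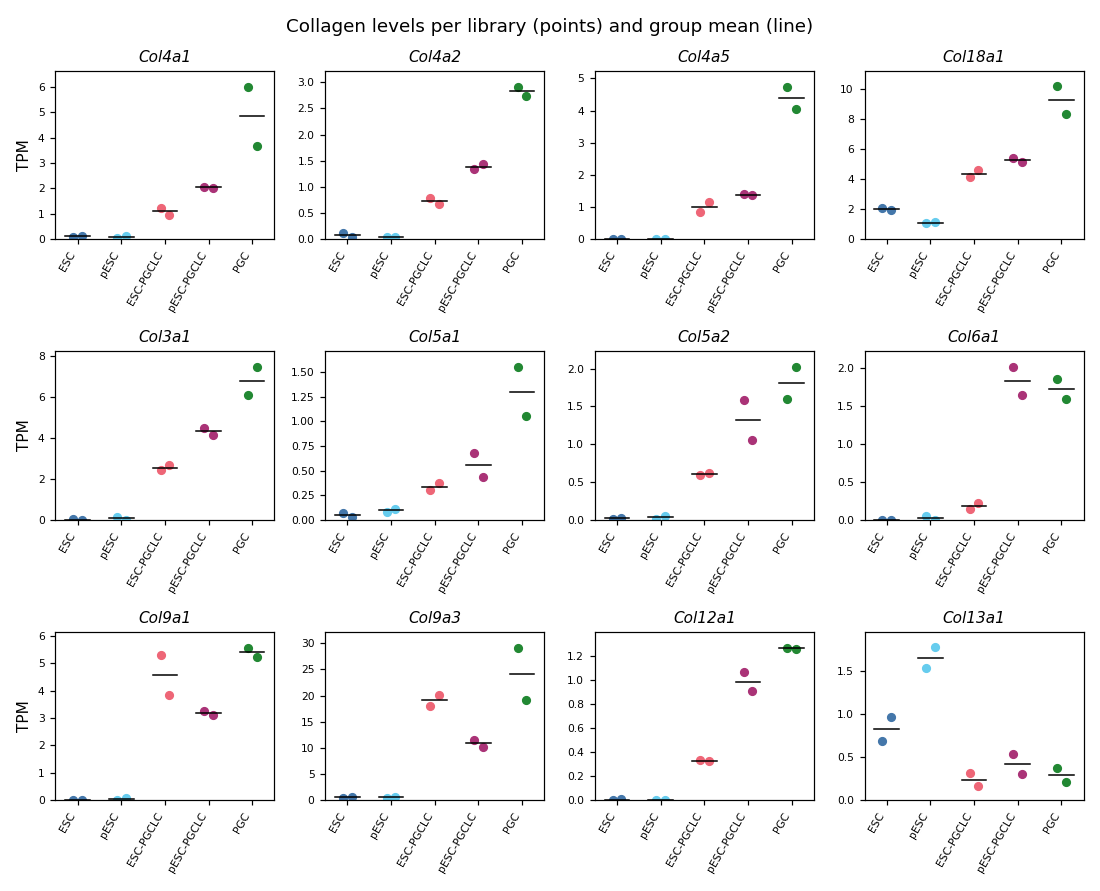
TPM of 12 collagen genes in the 5 groups, with 1 point per library and a line at the group mean, on axes that start at 0 and differ between genes. Most genes climb in the order ESC or pESC, ESC-PGCLC, pESC-PGCLC, PGC, while Col9a1 and Col9a3 are higher in ESC-PGCLCs than in pESC-PGCLCs, Col6a1 is near 0 in ESC-PGCLCs, and Col13a1 runs the other way.

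Among the other FACIT genes, limma on log2(TPM + 1) called Col12a1, a chain that bridges fibrils and cells. It had 2 reads in ESCs and 0 in pESCs, and was at 0.33 and 0.32 TPM in ESC-PGCLCs, 1.06 and 0.91 TPM in pESC-PGCLCs, and 1.27 and 1.26 TPM in PGCs. Its mean was at least 87.3-fold higher in pESC-PGCLCs than in pESCs, yet the log2(TPM + 1) change of 0.99 ± 0.11 fell just short of the limit. In PGCs against stem cells the change was 1.17 ± 0.09 (limma adjusted p = 2.4e-05), which dropped below the limit with quantile normalization (0.86) and median centring (0.41). Col14a1, Col16a1, Col19a1, Col20a1 and Col22a1 stayed at or under 0.32 TPM, and voom called Col16a1, Col19a1 and Col22a1 higher in PGCs against stem cells.

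Col6a1, a chain of the beaded filaments around many cells, set the kinds of PGCLC apart. It had 0 reads in ESCs and 2 in pESCs, and was at 0.14 and 0.22 TPM in ESC-PGCLCs, 2.01 and 1.65 TPM in pESC-PGCLCs and 1.86 and 1.59 TPM in PGCs. The pESC-PGCLC and PGC libraries overlapped and lay above both ESC-PGCLC libraries, which held 7 reads together. The mean was 9.94-fold higher in pESC-PGCLCs than in ESC-PGCLCs. Its partner chains were much lower. Col6a2 was at 0.18 and 0.35 TPM in pESC-PGCLCs and 0.26 and 0.17 TPM in PGCs, with 1 read in ESC-PGCLCs, and Col6a3 reached at most 0.19 TPM. The type X chain gene Col10a1 was at 0.64 and 0.68 TPM in pESC-PGCLCs and at most 0.49 TPM elsewhere. Limma did not call it, while voom and a pseudocount of 0.1 called it higher in pESC-PGCLCs against pESCs.

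Col13a1, a transmembrane collagen found at cell junctions, was the 1 named member that was highest in stem cells. It was at 0.68 and 0.97 TPM in ESCs, 1.53 and 1.78 TPM in pESCs, 0.32 and 0.16 TPM in ESC-PGCLCs, 0.54 and 0.30 TPM in pESC-PGCLCs and 0.37 and 0.22 TPM in PGCs. All 4 stem cell libraries lay above all 6 germ cell libraries. The log2 changes of -0.56 ± 0.16, -0.91 ± 0.16 and -0.77 ± 0.14 in ESC-PGCLCs, pESC-PGCLCs and PGCs were under 2-fold on this scale (limma adjusted p = 0.0233, 0.00252 and 0.00202), and voom called it lower in all 3. The other transmembrane genes Col17a1, Col23a1 and Col25a1 stayed at or under 0.87 TPM. Voom called these higher in PGCs against stem cells and in ESC-PGCLCs against ESCs. In pESC-PGCLCs against pESCs it called Col23a1 and Col25a1 higher.

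A second question was whether origin, parthenogenetic or fertilized, changed the collagens. In pESCs against ESCs limma called 0 of 35 collagens, beside 0.781% of all tested genes called in either direction. At an unadjusted limma p under 0.05 there were 2 of 35 collagens, beside 4838 of all 27259 tested genes. Voom called 0 collagens as well. For Col13a1 the pESC libraries did not overlap the lower ESC libraries (ratio of means 2.00, log2 change 0.54 ± 0.16, limma adjusted p = 0.127).

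In pESC-PGCLCs against ESC-PGCLCs Col6a1 rose (1.25 ± 0.13, limma adjusted p = 0.000596) and 0 of 35 fell, beside 10.3% of all tested genes that rose and 3.08% that fell. Without a call, 21 of 44 members were higher in both pESC-PGCLC libraries and 8 were lower, the latter including Col9a1 and Col9a3. These are 47.7% and 18.2% of the members, beside 32.4% and 14.1% of all genes. Voom and a pseudocount of 0.1 both called Col12a1 and Col6a2 higher as well as Col6a1, and Col19a1 lower, which had 13 reads in ESC-PGCLCs and 1 read in pESC-PGCLCs. For Col9a3 the log2 change was -0.76 ± 0.21 (limma adjusted p = 0.0368), under 2-fold, and quantile normalization and median centring called it lower. For Col3a1 it was 0.59 ± 0.17 (adjusted p = 0.0416) and for Col4a2 0.47 ± 0.13 (adjusted p = 0.0407), both under 2-fold in limma. With median centring the Col6a1 change was 0.85 and not called, and the calls over all genes went from 2812 higher and 839 lower to 1460 and 1891. The summed gonadal somatic and erythroid markers were also higher in pESC-PGCLCs than in ESC-PGCLCs, as given above, and their part in the Col6a1 value was not tested.

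The interaction asks whether the change on differentiation differed between the lines. Here 1 of 35 collagens was called, Col6a1, with 1.22 ± 0.19 more log2 units in the pESC line (limma adjusted p = 0.00322), beside 19.1% of all tested genes called in either direction. The call was lost with quantile normalization (1.00), median centring (0.47) and voom (adjusted p = 0.382). Each of those settings made calls in the other direction, and voom made calls in both. Median centring called Col9a1, Col9a3, Col13a1 and Col19a1 lower and 0 higher, quantile normalization called Col9a3 lower, and voom called Col11a1 higher and Col19a1 lower. Col12a1 (0.59 ± 0.15, limma adjusted p = 0.0288) and Col18a1 (0.75 ± 0.23, limma adjusted p = 0.0499) passed the p threshold and not the 2-fold limit. For the members called in the pESC line and not in the ESC line other than Col6a1 (Col4a1, Col4a2, Col5a2 and Col18a1), a difference between the lines was therefore not shown by these thresholds. With a pseudocount of 0.1, Col18a1 was called higher in the interaction beside Col6a1.

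PGCs were then set against each kind of PGCLC. Against ESC-PGCLCs 5 of 35 collagens rose (Col3a1, Col4a1, Col4a2, Col4a5 and Col6a1) and 0 fell, beside 12% of all tested genes that rose and 1.88% that fell. The 4 with the most reads had log2 changes of 1.13 ± 0.17, 1.45 ± 0.21, 1.15 ± 0.13 and 1.43 ± 0.16 (Col3a1, Col4a1, Col4a2 and Col4a5; limma adjusted p = 0.00344, 0.0032, 0.00173 and 0.00145). Against pESC-PGCLCs 2 rose (Col4a5 by 1.17 ± 0.16 and Col9a3 by 1.06 ± 0.21; limma adjusted p = 0.0133 and 0.0325) and 0 fell, beside 2.07% and 1.6%. These comparisons share the PGC libraries. All 7 calls were lost with quantile normalization, with median centring and in a fit of the compared groups alone. Median centring moved the calls over all genes from 3260 higher and 512 lower to 712 and 2003 against ESC-PGCLCs, and from 564 and 436 to 293 and 821 against pESC-PGCLCs. Without PGC replicate 1 or without either pESC-PGCLC library, 0 collagens were called in PGCs against pESC-PGCLCs, and Col9a3 was also lost without either ESC library or either ESC-PGCLC library, its value staying at 1.06. Col9a3 and Col9a1 were not separated between PGCs and ESC-PGCLCs (log2 changes 0.30 ± 0.21 and 0.21 ± 0.18).

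Collagen chains need enzymes and chaperones before they can be secreted, and 33 such genes were read beside them. In PGCs against stem cells 16 rose and 2 fell, in pESC-PGCLCs against pESCs 8 rose and 1 fell, and in ESC-PGCLCs against ESCs 5 rose and 4 fell. The median log2 change of the 32 tested was 0.99, 0.46 and 0.16, beside 0.28, 0.22 and 0.05 for all tested genes. Over all tested genes 25.3%, 20.8% and 15.3% rose and 8.06%, 6.8% and 14.5% fell, so the counts of the latter 2 comparisons lie close to the background. Pxdn, the peroxidasin that links type IV collagen with sulfilimine bonds, went from 0.09 and 0.14 TPM in ESCs and 0.01 and 0.13 TPM in pESCs to 3.42 and 4.41 TPM in ESC-PGCLCs, 6.26 and 5.05 TPM in pESC-PGCLCs, and 9.81 and 10.6 TPM in PGCs. It rose in all 3 comparisons (log2 changes 2.13 ± 0.19, 2.63 ± 0.19 and 3.36 ± 0.16). Pcolce, which speeds removal of the fibrillar C-propeptide, fell from 27.7 and 21.7 TPM in ESCs to 0.38 and 0.32 TPM in ESC-PGCLCs, by 4.24 on the log2 scale, and from 9.14 and 11.9 TPM in pESCs to 1.11 and 1.08 TPM in pESC-PGCLCs. It was at 2.13 and 2.11 TPM in PGCs. Pcolce was also the 1 enzyme called in pESCs against ESCs (-1.16 ± 0.19, limma adjusted p = 0.041), a call kept with voom but lost with quantile normalization, with median centring, and in 9 of 10 fits that left out 1 library (all but pESC replicate 2).

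Some modifying enzymes separated the lines. P3h1, a collagen prolyl hydroxylase, was at 4.77 and 3.94 TPM in ESCs, 2.28 and 2.22 TPM in pESCs, 1.09 and 1.21 TPM in ESC-PGCLCs, 4.24 and 4.17 TPM in pESC-PGCLCs and 9.01 and 6.22 TPM in PGCs. Loxl2, a lysyl oxidase that acts on type IV collagen, was at 1.61 and 1.51 TPM in ESCs, 3.68 and 3.44 TPM in pESCs, 12.1 and 17.9 TPM in ESC-PGCLCs, 2.04 and 1.65 TPM in pESC-PGCLCs, and 8.35 and 6.29 TPM in PGCs. In the interaction P3h1 was called with 1.99 ± 0.28 and Loxl2 with -3.30 ± 0.31 (limma adjusted p = 0.00206 and 0.000554). P4hb, the beta subunit of prolyl 4-hydroxylase, and Colgalt1, a collagen galactosyltransferase, were also called there, with 2.04 ± 0.28 and 1.93 ± 0.32.

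The 16 basement membrane partners moved in both directions. In ESC-PGCLCs against ESCs 2 rose (Lamb1 and Nid2) and 5 fell, in pESC-PGCLCs against pESCs 2 rose and 3 fell, and in PGCs against stem cells 4 rose and 2 fell, of 14 tested. With 15.3%, 20.8% and 25.3% of all tested genes rising, the counts of rising partners lie near the background. In the same order 14.5%, 6.8% and 8.06% of all tested genes fell. Lamb1, the laminin beta1 chain, was at 2.21 to 2.72 TPM in stem cells, 6.94 to 8.37 TPM in PGCLCs and 14.5 and 15.1 TPM in PGCs. Nid1, the nidogen that ties laminin to type IV collagen, was at 13.4 to 21.2 TPM in stem cells, 0.81 to 2.34 TPM in PGCLCs and 2.80 and 2.41 TPM in PGCs, while Nid2, the related nidogen, was at 11.5 to 20.3 TPM, 38.4 to 47.7 TPM and 64.1 and 59.3 TPM. Sparc, a collagen-binding matrix protein, was at 106 to 171 TPM in stem cells, 17.1 to 25.3 TPM in PGCLCs and 44.1 and 34.5 TPM in PGCs. The log2 changes in PGCs against stem cells were 2.24 ± 0.13 for Lamb1, 1.81 ± 0.20 for Nid2, -2.30 ± 0.20 for Nid1 and -1.77 ± 0.12 for Sparc (limma adjusted p = 5.71e-06, 0.000125, 3.8e-05 and 1.24e-05).

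Of the 10 collagen receptor genes, Itgb1, the beta1 chain shared by the collagen-binding integrins, rose in all 3 comparisons with stem cells. It was at 9.06 to 12.6 TPM in stem cells, 29.7 and 28.8 TPM in ESC-PGCLCs, 40.7 and 40.1 TPM in pESC-PGCLCs and 63.9 and 52.4 TPM in PGCs, 3 groups without overlap. Ddr1 and Mrc2, a receptor kinase for collagen and a receptor that takes it up, rose in PGCs against stem cells by 1.05 ± 0.22 and 1.31 ± 0.11, both under 2-fold with quantile normalization or median centring. The Ddr1 change was also under 2-fold without PGC replicate 1 (0.68) or pESC replicate 1 (0.97). Of the 9 collagen-cleaving proteases and their inhibitors, Timp1 fell from between 112 and 159 TPM in stem cells to 2.37 and 1.38 TPM in ESC-PGCLCs, 16.7 and 17.0 TPM in pESC-PGCLCs and 12.4 and 10.5 TPM in PGCs. The inhibitors Timp2 and Timp3 went the other way, from at most 0.09 and 0.30 TPM in stem cells to between 4.09 and 5.35 TPM and between 3.22 and 4.45 TPM in PGCs. In PGCs against stem cells 3 of 8 tested genes of this list rose and 1 fell, and 3 of 9 tested receptors rose, beside the 25.3% and 8.06% of all tested genes.

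**Figure D5:**
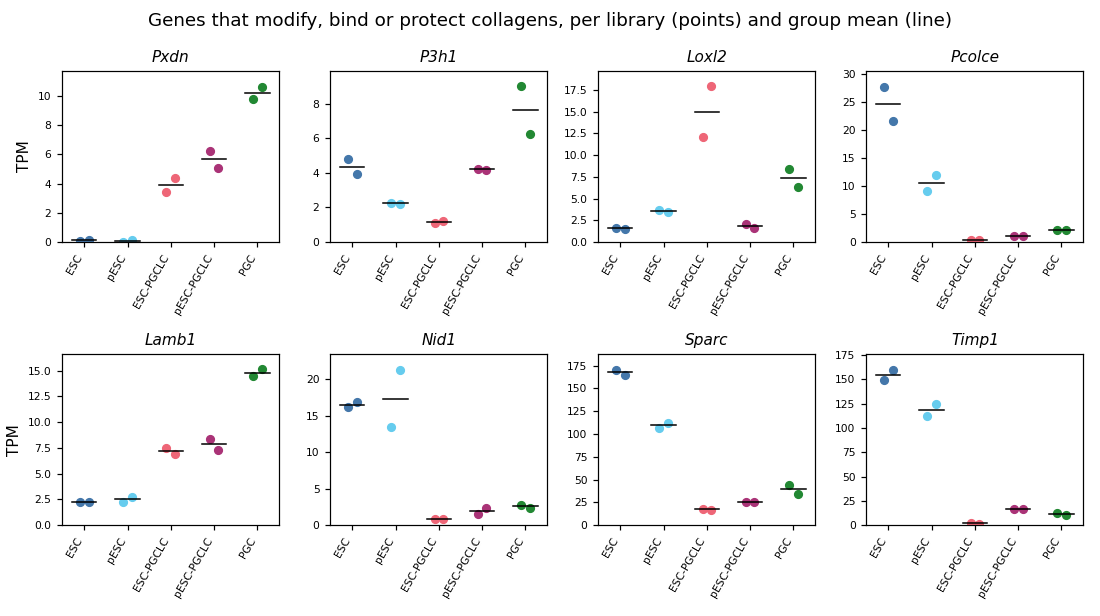
TPM of 8 genes whose products modify, bind or protect collagens, in the 5 groups, with 1 point per library and a line at the group mean. Pxdn and Lamb1 climb from stem cells to PGCs, Pcolce, Nid1, Sparc and Timp1 drop, and P3h1 and Loxl2 differ in opposite ways between ESC-PGCLCs and pESC-PGCLCs.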

How the data were processed

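The authors deposited 1 table of TPM values per gene symbol and library, without further normalization. The submitters' notes name mm10, HISAT2, Bowtie2, RSEM, R 3.4.2 and DESeq2; the paper's methods give HISAT2 and featureCounts. The paper and the labels differ on library kit and on doses for epiblast-like cells, and neither kit marks strand. Replicates are named biological by the paper; the labels say no more, so p-values measure the spread between these libraries.

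Symbols were matched to GENCODE M21 (35861 of 36066). TPM times exon length, scaled per library, gave whole numbers within 0.05 reads for 94.9% to 95.3% of values above 0. These recovered reads gave the depth (6779837 to 18572894) and floors of 3 reads, which cover counting error only. In R 4.3.3, limma 3.58.1 fitted 5 group means to log2(TPM + 1) of the 27259 genes with 0.1 TPM in at least 2 libraries (5 residual and 2.81 prior degrees of freedom, variance trend on the mean). In all 8 contrasts were taken, and a call needed a Benjamini-Hochberg adjusted p under 0.05 and a 2-fold change. With 2 against 2 libraries an exact permutation test cannot go below 0.333. The script was tested on simulated data. Other settings tried were a filter at 1 TPM or no filter, a 0.1 pseudocount, only the groups compared, quantile normalization, median centring, a replicate block, voom on recovered reads, no fold limit and each library left out. The class difference without Col18a1 was added after the data were seen. Members and lists were chosen with earlier results of these data known. Named 1 by 1 are members of both classes at 1 TPM in some library, other members with a group mean of 1 TPM or a call, and, in the lists of related genes, called genes among the 3 largest changes in a direction; other members are named as low. Python 3.11.15 and matplotlib 3.10.9 made the summaries and figures. Promoters are from RefSeq (GRCm38.p6). A gene of the related lists is counted but not reported here by name.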

Additional observations from a re-analysis of the deposited data

Results flagged for a closer look

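In the interaction of origin and differentiation 3 collagens passed the p threshold in limma with Benjamini-Hochberg adjustment over 27259 genes. They were Col6a1 (1.22 log2 units, limma adjusted p = 0.00322), Col18a1 (0.75, adjusted p = 0.0499) and Col12a1 (0.59, adjusted p = 0.0288). Only Col6a1 also passed the 2-fold limit, beside 19.1% of all tested genes that passed both thresholds in either direction. Its call was lost with quantile normalization, median centring and voom. Col12a1 turned to -0.16 with median centring. Col18a1 was called higher with a pseudocount of 0.1. Among the genes related to collagens, the same interaction passed both thresholds for Timp1 (3.03, adjusted p = 0.000422), P4hb (2.04, adjusted p = 0.00192), P3h1 (1.99, adjusted p = 0.00206), Colgalt1 (1.93, adjusted p = 0.00421), Lama1 (1.39, adjusted p = 0.0187), Sparc (1.13, adjusted p = 0.00594) and Loxl2 (-3.30, adjusted p = 0.000554). These are the named genes only. Median centring moved the median interaction of all tested genes from 0.21 to -0.54. Each library shifts by 1 constant there, so Lama1 and Sparc fell under the 2-fold limit. Of 32 tested processing enzymes 9 were called higher and 1 lower, beside the same 19.1% of all tested genes. Called higher were also 3 of 14 tested basement membrane partners and 1 of 8 tested proteases and inhibitors.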

How the results depend on the processing

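The counts of collagens called depended on several settings. The order here is pESC-PGCLC against ESC-PGCLC, ESC-PGCLC against ESC, pESC-PGCLC against pESC, PGC against ESC-PGCLC, PGC against pESC-PGCLC, PGC against stem cells, and the interaction, with 1, 4, 9, 5, 2, 11 and 1 as reported. With a pseudocount of 0.1 the counts were 4, 20, 23, 12, 1, 28 and 2, with voom 4, 23, 29, 11, 6, 31 and 2, and without a fold limit 7, 14, 20, 12, 6, 27 and 3. With voom more of all genes were called higher too. Their share went from 15.3% to 26.6% in ESC-PGCLC against ESC. It went from 20.8% to 28.7% in pESC-PGCLC against pESC and from 25.3% to 37.2% in PGC against stem cells. No share of all genes is given for the other counts here, so they are not read as particular to collagens. Median centring gave 4 in pESC-PGCLC against pESC, 0 and 0 in PGC against either PGCLC, and 4 in the interaction, all lower (Col9a1, Col9a3, Col13a1 and Col19a1) where the 1 reported was higher. Quantile normalization gave 2 in the first comparison and 0 and 0 in PGC against either PGCLC, and a fit of the compared groups alone, with fewer libraries for the spread, also gave 0 and 0 there. Leaving out 1 library gave 0 to 3 calls in PGC against pESC-PGCLC, 4 to 5 in ESC-PGCLC against ESC, 9 to 11 in pESC-PGCLC against pESC, 5 to 6 in PGC against ESC-PGCLC and 10 to 11 in PGC against stem cells.

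The basement membrane minus fibrillar difference was 0.60, 0.12, 0.22, -0.25 and 0.24 in ESC, pESC, ESC-PGCLC, pESC-PGCLC and PGC with a pseudocount of 0.1. With 5 more fibrillar genes it was 0.22, 0.11, 0.40, 0.40 and 0.78. Leaving Col18a1 out of its class, an alternative added once the data had been seen, gave 0.0037, -0.057, -0.11, -0.23 and 0.065. As a log2 ratio of sums it was 3.48, 1.50, 0.81, 0.46 and 0.95, and with quantile normalization 0.24 in ESC and 0.17 in ESC-PGCLC. Signs turned for Col4a2 in pESC against ESC (0.27, median centring), Col5a1 in pESC-PGCLC against pESC (-0.23, median centring), Col9a3 (-0.26 quantile, -0.31 median centring) and Col9a1 (-0.39 in both) in PGC against ESC-PGCLC, Col12a1 in the interaction (-0.16, median centring), and Col6a1 in PGC against pESC-PGCLC (-0.14 to 0.039 over single libraries left out, above 0 without PGC replicate 2, 0.02, or pESC-PGCLC replicate 1). None of these values was called as reported. The cause was not tested. Of 2752 recomputed values of named genes, 2497 kept direction and side of the threshold, 158 lost and 88 gained a call, and 9 changed sign.

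Replicate numbers did not pair the libraries: deviations of same-numbered libraries correlated at -0.09 to 0.35 over 10 pairs of groups (9024 genes). With the replicate block the counts of collagens stayed at 0 for pESC against ESC and at 1, 4, 9, 5, 2, 11 and 1 for the others, and Pcolce in pESC against ESC was no longer called (-1.16, limma adjusted p = 0.0676). Depth limits the stem cell values most, since 223 to 355 reads fell on all collagens there.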
